A study of Mus musculus with 12 samples.

Results

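Apolipoproteins are the protein coat of lipoproteins, the particles that carry triglyceride and cholesterol through plasma, and the liver is the main source of most of them. Apob is the structural protein of very low density and low density lipoproteins and stays with its particle, whereas the A, C and E apolipoproteins move between particles, activate or inhibit lipases, and bind receptors. The 10 genes described here were taken by name: Apoa1, Apoa2, Apoa4, Apoa5, Apob, Apoc1, Apoc3, Apoe, Apoh and Apom. All 10 were found, each as 1 row, among the 22564 genes of the expression table that could be tied to a genotype. Their m6A peaks numbered 5 among the 17277 peaks of the case list and 25 among the 17175 peaks of the control list.

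The study sequenced liver RNA of male C57BL/6 mice aged 8 weeks that were either conditional knockouts (cKO) lacking Mettl3 in liver or wild type. Mettl3 is the methyltransferase that writes N6-methyladenosine (m6A) into mRNA. Fragmented RNA was precipitated with an antibody to m6A (IP) or sequenced without precipitation (input). The labels name 3 input and 3 IP samples for each genotype, and what drives the deletion, or which mice were littermates, is not stated in these sources. From each genotype 1 input and 1 list of IP peaks were used. They are named case and control, which was read here as Mettl3 cKO and wild type. The labels do not state that reading, and Mettl3 itself did not separate the libraries, with 2.91 FPKM from 17 fragments in the library labelled case and 3.44 FPKM from 12 fragments in the library labelled control. Every direction below is drawn from the names alone. With 1 library for each genotype there was no test, no replicate check, and no p-value.

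The levels below are FPKM, fragment numbers scaled by transcript length and by library, so that genes of different length can be set side by side. The case input held 3564803 fragments and the control input 1737350, with mitochondrial shares of 27.6% and 23.9%. Intervals are 95% intervals that cover counting error alone, and treat each fragment as a separate molecule. Copies made by PCR are not separate molecules, so the intervals can be too narrow. The difference of a gene is that of log2(FPKM + 1), case minus control, and a gene is called at least 2-fold higher when it reaches 1. The 2 libraries were not on equal totals, with non-mitochondrial FPKM summing to 210314 in the case and 117090 in the control input. Over the 9584 genes compared the median difference was 0.41. In bulk RNA, fewer cells of a type and less RNA in each cell cannot be told apart.

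All 10 genes were listed higher in the case input, and 7 of the 10 reached the 2-fold line, as did 23.6% of all genes compared. The median difference of the 10 genes was 1.31. Abundant genes as a class shared this: of the 194 genes with a mean of at least 100 FPKM, 61.9% were at least 2-fold higher, with a median of 1.31. Of the 8 apolipoprotein genes in that class 6 were at least 2-fold higher, also with a median of 1.31. The count of higher genes is therefore close to what abundant liver genes showed in these 2 libraries, and it moved with the scaling. For equal non-mitochondrial totals, FPKM were rescaled by the totals of the deposited scaled counts, not by the FPKM sums given above. Apoa2, Apoc3 and Apom (3 of the 10) then stayed past 2-fold, beside 8.01% of all genes. With quantile normalization 0 did, beside 14.2% of all genes. That method sets genes of equal rank in the 2 inputs to a difference of 0, as for Apoe at rank 2 in each. It can therefore show little about genes that hold the top ranks in both inputs.

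**Figure D1:**
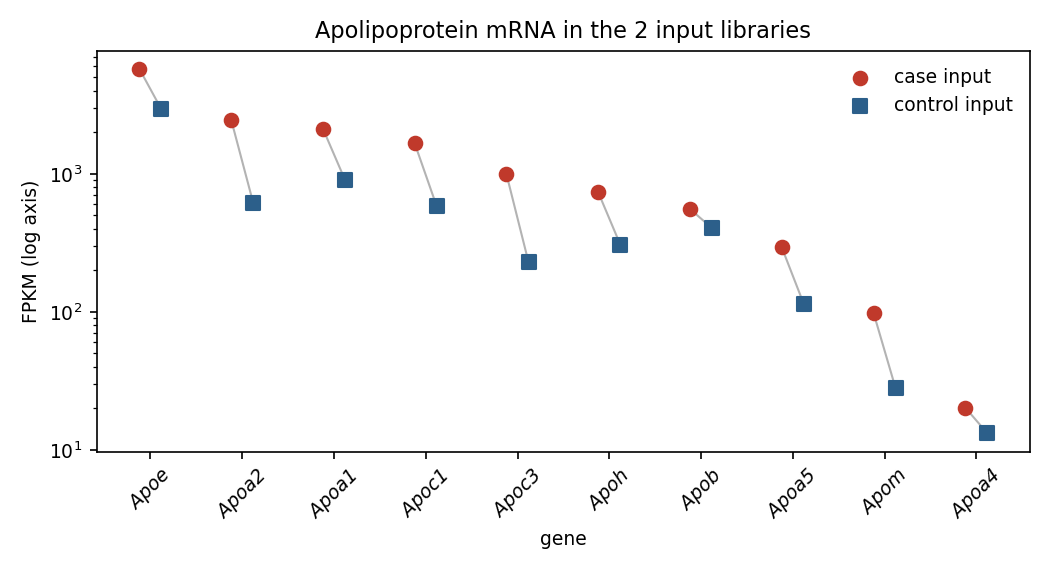
FPKM (log axis) of the 10 apolipoprotein genes in the case input (circles) and the control input (squares), 1 library each, in the order of the case input. Apoe leads at 5751 FPKM in the case and 2930 in the control input, and every gene lies higher in the case input, by the most for Apoc3 and Apoa2 and by the least for Apob.

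The RefSeq promoter table (GRCm38.p6, 250 bases before to 50 after each start) held 8 of the 10 genes, all but Apoc1 and Apoc3, in 12 windows. Of the peaks of these 8 genes 1 met such a window, the control-list peak over the 5′ part of Apom, which covered 299 of its 300 bases. This window (chr17:35131752-35132051, minus strand) is shown for that reason, with the letters AGACT, a form of the m6A consensus, in capitals. They begin at position -210 from the RefSeq start, outside the RefSeq transcript. The deposited Apom locus runs further, to 35132050, and takes these letters in. Further forms of the consensus in the window are not marked. GGACT, the commonest form, was not among its letters on the transcript strand, where 26.1% of all 32851 windows held GGACT and 26.8% AGACT.
Apom: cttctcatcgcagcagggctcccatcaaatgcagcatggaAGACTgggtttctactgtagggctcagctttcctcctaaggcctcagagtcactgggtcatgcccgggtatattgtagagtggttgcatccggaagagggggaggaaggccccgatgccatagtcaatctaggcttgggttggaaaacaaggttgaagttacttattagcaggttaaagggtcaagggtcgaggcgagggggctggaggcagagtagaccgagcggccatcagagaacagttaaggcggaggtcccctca

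The promoters of Apoa2 (chr1:171224804-171225103, plus strand), Apoa5 (chr9:46268383-46268682, plus strand) and Apob (chr12:7977427-7977726, plus strand) are shown to set genes with a large, a middle and a small difference side by side. Capitals mark TATAAA, searched on both strands, which 13.6% of all windows held. Counted from the transcription start, it began at position -212 in Apoa2, -56 in Apoa5 and -60 in Apob. A second Apoa5 window, from an earlier start, held the same letters at -31, and an Apoe window held the motif too, so that 5 of the 12 windows, of 4 genes, had it. The nuclear receptor half-site AGGTCA, on either strand and in 16.3% of all windows, was in none of these 3 and was found in the Apoh window and in a second window of Apoa2. CAAAGTCCA, a form of the Hnf4a site held by 0.475% of all windows, was in none of the 12.
Apoa2: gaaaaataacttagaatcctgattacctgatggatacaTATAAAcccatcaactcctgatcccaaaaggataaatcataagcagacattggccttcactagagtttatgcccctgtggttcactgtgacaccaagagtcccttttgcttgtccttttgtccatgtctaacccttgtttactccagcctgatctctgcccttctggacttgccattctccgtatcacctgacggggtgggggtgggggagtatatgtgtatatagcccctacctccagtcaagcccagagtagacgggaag
Apoa5: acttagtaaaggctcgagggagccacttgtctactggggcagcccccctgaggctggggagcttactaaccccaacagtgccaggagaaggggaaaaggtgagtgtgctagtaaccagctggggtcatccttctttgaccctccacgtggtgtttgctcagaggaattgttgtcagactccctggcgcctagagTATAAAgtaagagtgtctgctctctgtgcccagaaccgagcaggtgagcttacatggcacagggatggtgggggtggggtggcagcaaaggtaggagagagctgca
Apob: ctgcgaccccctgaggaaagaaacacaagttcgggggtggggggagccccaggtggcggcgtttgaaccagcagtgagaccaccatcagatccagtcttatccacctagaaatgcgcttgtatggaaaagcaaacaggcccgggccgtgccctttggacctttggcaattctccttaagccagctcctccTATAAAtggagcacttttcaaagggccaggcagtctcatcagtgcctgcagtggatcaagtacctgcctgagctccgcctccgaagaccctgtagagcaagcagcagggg

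The apolipoproteins of high density lipoprotein (HDL) differed among themselves. Apoa1, its main protein and the activator of the cholesterol-esterifying enzyme Lcat, had 2120 FPKM in the case and 904 FPKM in the control input (12125 and 4480 fragments). Its ratio of scaled fragments was 2.31, with an interval of 2.23 to 2.39. Apoa2, the other abundant HDL protein, had 2463 FPKM in the case and 616 FPKM in the control input, a ratio of 4.01 (3.77 to 4.27). Apoa2 thus stood above Apoa1 in the case input, at 1.16 times its level (1.13 to 1.2), and below it in the control input, at 0.681 times (0.639 to 0.725). This change of order lies within each library, so no scaling between libraries alters it.

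Apom, a lipocalin that carries sphingosine 1-phosphate on HDL, had 98.2 FPKM in the case and 28.0 FPKM in the control input, from 560 and 136 fragments. The ratio was 3.52 with an interval of 2.91 to 4.27. Apoa4, which in mice is made by intestine and liver, was the least abundant of the 10, with 20.2 FPKM in the case and 13.2 FPKM in the control input. Its ratio was 1.53 (1.23 to 1.93), and its difference of 0.58 turned to -0.11 with equal non-mitochondrial totals, -0.07 with quantile normalization and -0.12 on fragments scaled to their total. Of 10 enterocyte markers 2 could be compared. Lct, Sis, Alpi, Cdx1, Cdx2, Cdh17 and Slc5a1 were listed at 0 in both inputs, Vil1 was at 0 in the case and 0.295 FPKM in the control input, and Fabp2, also a liver transcript at low level, had 5.01 and 1.74 FPKM (27 and 8 fragments), a difference of 1.13. Anpep, which liver expresses too, differed by 0.35 and made up most of the list's sum of 33.0 FPKM in the case and 23.8 FPKM in the control input. The part of intestinal cells in the Apoa4 values was not tested.

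Apob had the smallest difference of the 10 genes. It was listed at 556 FPKM in the case and 404 FPKM in the control input, from 47553 and 30217 fragments, more than any of the other 9. The ratio was 1.34 (1.32 to 1.36), and the difference of 0.46 sat 0.05 above the median of all genes. With equal non-mitochondrial totals it was -0.28, with quantile normalization -0.69 and on fragments scaled to their total -0.31, so its direction rests on the scaling. Relative to the other apolipoproteins Apob was lower in the case input, though the interval of the Apoa4 ratio (1.23 to 1.93) takes in the Apob ratio. Apoe stood at 10.3 times the Apob level in the case input (10.2 to 10.5) and at 7.26 times in the control input (7.12 to 7.4). Apoc3 stood at 1.78 times (1.71 to 1.86) in the case input and at 0.568 times (0.519 to 0.620) in the control input.

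Among the apolipoproteins that set the rate of triglyceride clearance, Apoc3, an inhibitor of lipolysis and of remnant uptake, showed the largest difference. It stood at 992 FPKM (2524 fragments) in the case and 229 FPKM (499 fragments) in the control input, a ratio of 4.32 (3.92 to 4.77). Apoa5, which promotes lipolysis by lipoprotein lipase and lies in the same gene cluster, had 293 FPKM in the case and 114 FPKM in the control input, a ratio of 2.56 (2.41 to 2.73). The level of the inhibitor relative to Apoa5 was 3.39 (3.22 to 3.56) in the case input and 2.02 (1.82 to 2.24) in the control input. Apoc1, which also restrains lipolysis and receptor uptake, had 1661 FPKM in the case and 580 FPKM in the control input, a ratio of 2.87 (2.67 to 3.09).

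Apoe, the ligand through which hepatocytes take up lipoprotein remnants, was the most abundant of the 10 in both inputs and ranked 2 among all non-mitochondrial genes in each. It had 5751 FPKM in the case and 2930 FPKM in the control input. By FPKM the ratio was 1.96, just under the 2-fold line, and by scaled fragments it was 2.01 (1.97 to 2.05). Macrophages and stellate cells also make Apoe, and their markers were low in the case input. The 15 Kupffer cell and macrophage markers summed to 27.0 FPKM in the case and 775 FPKM in the control input. All 15 were at least 2-fold lower, and Csf1r, the macrophage growth factor receptor, had 0 fragments in the case and 785 in the control input. Others were Lyz2 (4.21 and 115 FPKM) and Cd5l (4.03 and 103 FPKM). Markers of stellate cells summed to 15.1 and 143 FPKM, with 9 of 9 compared lower (Ecm1 at 5.60 and 56.0, Dcn at 4.3 and 37.1), and those of sinusoidal endothelium to 28.8 and 272 FPKM, with 12 of 12 lower (Stab1 at 6.01 and 47.0, Clec4g at 4.58 and 44.1). Markers of 2 further cell types were scarce. Cholangiocyte markers summed to 1.94 and 9.14 FPKM (Spp1 at 1.45 and 6.92, Sox9 at 0.498 in each), with 5 of 7 at 0 in the case and 0 in the control input, and adipocyte markers to 5.22 and 21.2 FPKM (Fabp4 at 1.54 and 20.6, Plin4 at 3.0 and 0.607). The part of these cells in the Apoe values was not tested.

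Apoh, or beta-2-glycoprotein I, is a plasma protein that binds anionic phospholipid and is only loosely attached to lipoproteins. It had 734 FPKM in the case and 307 FPKM in the control input, a ratio of 2.39 (2.27 to 2.53). Its deposited locus (chromosome 11, 107933387 to 108414396) reaches far beyond the RefSeq gene, which starts at 108395297, and so takes in neighbouring sequence. Hepatocyte markers as a class showed a like shift: 9 of 16 were at least 2-fold higher and 0 lower, with a median of 1.1, which became 0.37 with equal non-mitochondrial totals. Their sum was 38429 FPKM in the case and 19862 FPKM in the control input, led by Alb (21158 and 11189 FPKM) and Trf (4153 and 2598 FPKM).

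Set in order, the levels in the case input ran from Apoe through Apoa2, Apoa1, Apoc1, Apoc3, Apoh, Apob, Apoa5 and Apom to Apoa4. No 2 neighbours in that order had overlapping counting intervals. In the control input the order was Apoe, Apoa1, Apoa2, Apoc1, Apob, Apoh, Apoc3, Apoa5, Apom and Apoa4, and the intervals overlapped for Apoa2 (582 to 651 FPKM) and Apoc1 (544 to 619 FPKM) only. Together the 10 genes made up 6.98% of all non-mitochondrial FPKM in the case input and 5.23% in the control input, or 4.52% and 4.23% of non-mitochondrial fragments. Within the 10, Apoe held 39.2% of the summed FPKM in the case input and 47.8% in the control input. Apoa2 held 16.8% and 10.1%, and Apoc3 held 6.75% and 3.74%.

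**Figure D2:**
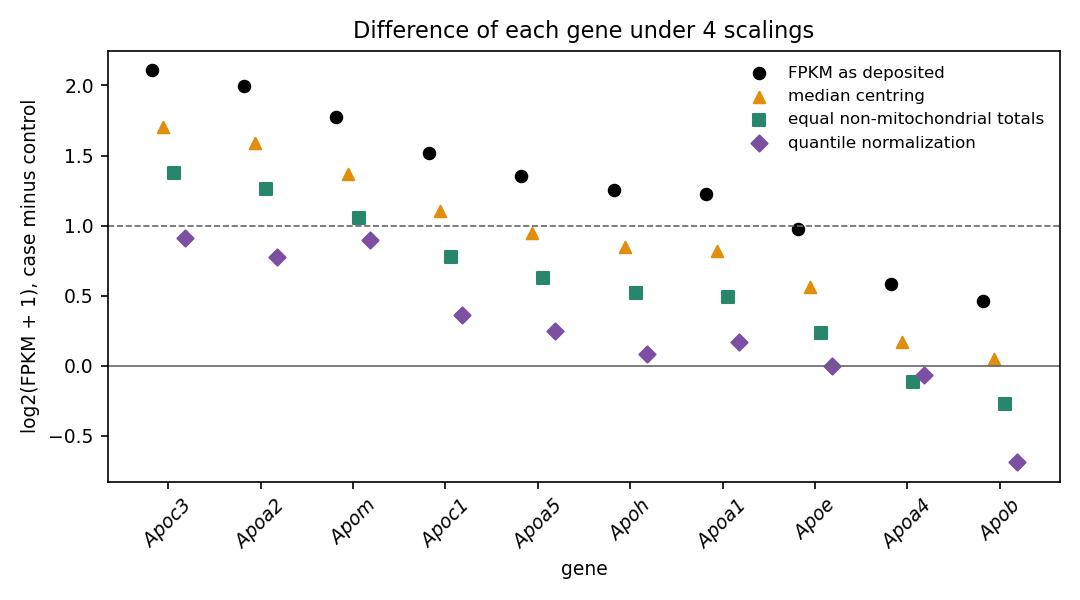
Difference of log2(FPKM + 1), case minus control, of each apolipoprotein gene under 4 scalings of the 2 input libraries, ordered by the deposited scale; the dashed line marks 2-fold. Apoc3, Apoa2 and Apom are among the highest under each scaling shown, and Apoa4 and Apob fall below 0 with equal non-mitochondrial totals and with quantile normalization.

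Among these 10 genes the larger differences tended to lie with the shorter transcripts, a relation chosen after its values were seen. There were exceptions: Apoa5, with a longer transcript than Apoa1, Apoe and Apoh, had a larger difference than each of them. The deposited scaled count divided by FPKM is proportional to the effective length of a transcript, and was 1.75 for Apoc1, 2.19 for Apoa2 and 2.36 for Apoc3, between 5.28 and 6.36 for Apom, Apoa1, Apoe and Apoh, 10.1 for Apoa4, 13.3 for Apoa5 and 80.3 for Apob. Across the 10 genes the difference fell with this length (Spearman's rho -0.76, and -0.67 over the 9 genes without Apob). The points come from 1 pair of libraries and are not independent. Across 9486 genes with values in both inputs rho was -0.07, and across the 193 of these with a mean of at least 100 FPKM it was -0.08. The fifth of genes with the shortest transcripts had a median difference of 0.47 and the fifth with the longest 0.32.

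**Figure D3:**
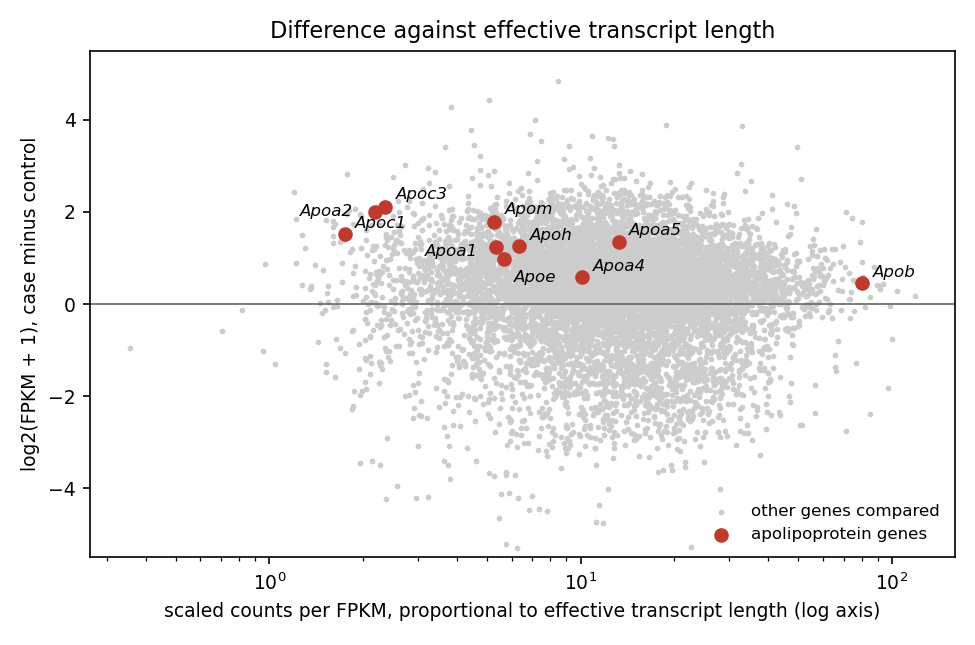
Difference of log2(FPKM + 1), case minus control, against the scaled count per FPKM (log axis), which is proportional to effective transcript length, for the 10 apolipoprotein genes (large points) and the other genes compared (small points; the vertical axis is limited to 5.5 on either side). Apoc1, Apoa2 and Apoc3 lie at the short end with high differences and Apob at the long end near 0.46.

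Of the 10 genes 6 lie in 2 clusters, in which neighbours of other function can be compared. On chromosome 9 Apoa1, Apoc3, Apoa4 and Apoa5 lie between 46228630 and 46271921 (mm10), with FPKM ratios of 2.35, 4.33, 1.53 and 2.58. Upstream, Sidt2 had 37.0 and 17.1 FPKM, and Pafah1b2 3.41 and 2.19 FPKM. The flanking kinase gene Sik3 had 6.61 FPKM in the case and 4.59 FPKM in the control input, a ratio of 1.44. On the other side Zpr1, a zinc finger gene listed under its older symbol Zfp259, had 37.3 and 17.2 FPKM, a ratio of 2.17, and Bud13 had 3.69 and 2.60 FPKM, a ratio of 1.42. On chromosome 7 Apoe and Apoc1 (19689480 to 19701310) neighbour Apoc4, at 471 FPKM in the case and 120 FPKM in the control input, and Apoc2, the cofactor of lipoprotein lipase, at 70.7 and 27.4 FPKM. Their ratios were 3.91 and 2.57. Apoc2 and Apoc4 share 1 locus in the deposited table, and fragments of transcripts that read through both could be split between them. Tomm40, the outer-membrane import pore gene beside Apoe, had 11.8 and 6.21 FPKM, a ratio of 1.91, Nectin2 (listed as Pvrl2) 14.0 and 9.84 FPKM, and Bcam 0.401 and 1.25 FPKM.

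Genes that build, edit, remodel and take up lipoproteins were read from 7 lists (108 genes in the table without the 10, of which 95 had a mean of at least 1 FPKM). Of these 95, 48 were higher by 2-fold or more in the case library and 10 lower, with a median difference of 1.02. Over all 9584 genes compared 23.6% were higher and 1264 genes lower, with a median of 0.41. With equal non-mitochondrial totals 21 of the 95 were higher, beside 8.01% of all genes. With quantile normalization 24 were, beside 14.2% of all genes. The same shares over all genes stand beside the counts of each list below. Under those scalings the list medians stayed above 0 except for Apob editing (-0.59 and -0.27) and receptors (-0.21 and -0.11).

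Of 18 genes of particle assembly and secretion 10 were at least 2-fold higher and 0 lower, with a median of 1.15. The 10 became 6 with equal non-mitochondrial totals and 8 with quantile normalization. Sar1b, the small GTPase of the vesicles that carry large lipoproteins out of the endoplasmic reticulum, had 52.1 FPKM in the case and 8.29 FPKM in the control input. The cargo receptor gene Mia2 had 26.9 and 4.82 FPKM, and Lpcat3, which enriches membranes in polyunsaturated phospholipid, had 32.8 and 6.81 FPKM. Mttp, the transfer protein that loads Apob with lipid, lay within 2-fold, at 58.2 and 38.2 FPKM, as did its partner P4hb at 237 and 139 FPKM, and with quantile normalization both were below 0 (-0.27 and -0.36). In the list for editing of Apob mRNA 2 of 5 were higher and 1 lower, and 1 was higher under either of those scalings. The deaminase Apobec1 had 9.59 FPKM in the case and 9.54 FPKM in the control input, though its 51 and 63 fragments, scaled to their total, differed by -1.23. Its RNA-binding cofactors A1cf (20.8 and 5.15 FPKM) and Rbm47 (24.0 and 10.5 FPKM) were at least 2-fold higher, and the related deaminase gene Apobec3 (1.70 and 5.72 FPKM) was lower.

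In the HDL list 7 of 10 genes were higher and 2 lower, with a median of 1.1. The 7 became 2 with equal totals and 2 with quantile normalization. The partner sterol exporters Abcg5 and Abcg8 had 34.5 and 22.5 FPKM in the case input, against 5.30 and 4.73 FPKM in the control input, and the RNA-binding protein gene Hdlbp had 45.8 against 15.5 FPKM, a difference of 1.51 that was 0.80 with equal totals. Abcg1, a sterol exporter prominent in macrophages, had 0.574 FPKM in the case and 8.42 FPKM in the control input, and the phospholipid transfer protein Pltp had 3.92 and 20.5 FPKM. Receptor and uptake genes were divided, with 3 of 13 higher, 4 lower and a median of 0.46, and 0 were higher with equal totals, quantile normalization, median centring or scaled fragments, where 4 stayed lower. Lsr (46.2 and 17.8 FPKM) and Sdc1 (76.3 and 35.0 FPKM) were among those higher on the deposited scale, and stood at 0.62 and 0.38 with equal totals. Stab1 was lower, as was Mylip (1.36 and 8.04 FPKM), and Apobr was listed at 0 in the case input and at 3.01 FPKM in the control input.

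Of 14 genes of lipolysis and its regulation 4 were higher and 2 lower, with a median of 0.78. With equal totals, and likewise with quantile normalization, 1 was higher and 3 lower. The carboxylesterases Ces3b (191 FPKM in the case and 36.2 FPKM in the control input) and Ces1d (402 and 129 FPKM) and the lipase inhibitor Angptl4 (57.3 and 20.5 FPKM) were higher, though Ces1d (0.89) and Angptl4 (0.72) were under the 2-fold line with equal totals. Lpl and its endothelial anchor Gpihbp1 were lower, at 0.434 and 2.57 FPKM in the case input against 11.5 and 13.4 FPKM in the control input. Carboxylesterases have close paralogs among which fragments could be split. Of 19 transcription regulators of apolipoprotein genes 12 were higher and 0 lower, with a median of 1.30, led by Mlxipl (102 and 18.9 FPKM), Srebf1 (116 and 22.1 FPKM) and Onecut1 (19.4 and 3.05 FPKM). With equal non-mitochondrial totals 8 were higher and 1 lower, and with quantile normalization 9 and 1.

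The remaining genes with apolipoprotein names, with the amyloid A, paraoxonase and clusterin genes, showed 10 of 17 higher and 2 lower, with a median of 1.09. With equal totals 3 were higher (median 0.39) and with quantile normalization 3 (median 0.27). Saa4, a constitutive HDL protein, had 46.6 FPKM in the case and 7.84 FPKM in the control input, and Apol9b had 19.4 and 3.83 FPKM. Apol9a and Apol9b are near-identical copies, so the split of their fragments is uncertain. Apold1, an endothelial gene named for its likeness to apolipoprotein L, was lower at 0.779 and 13.7 FPKM.

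**Figure D4:**
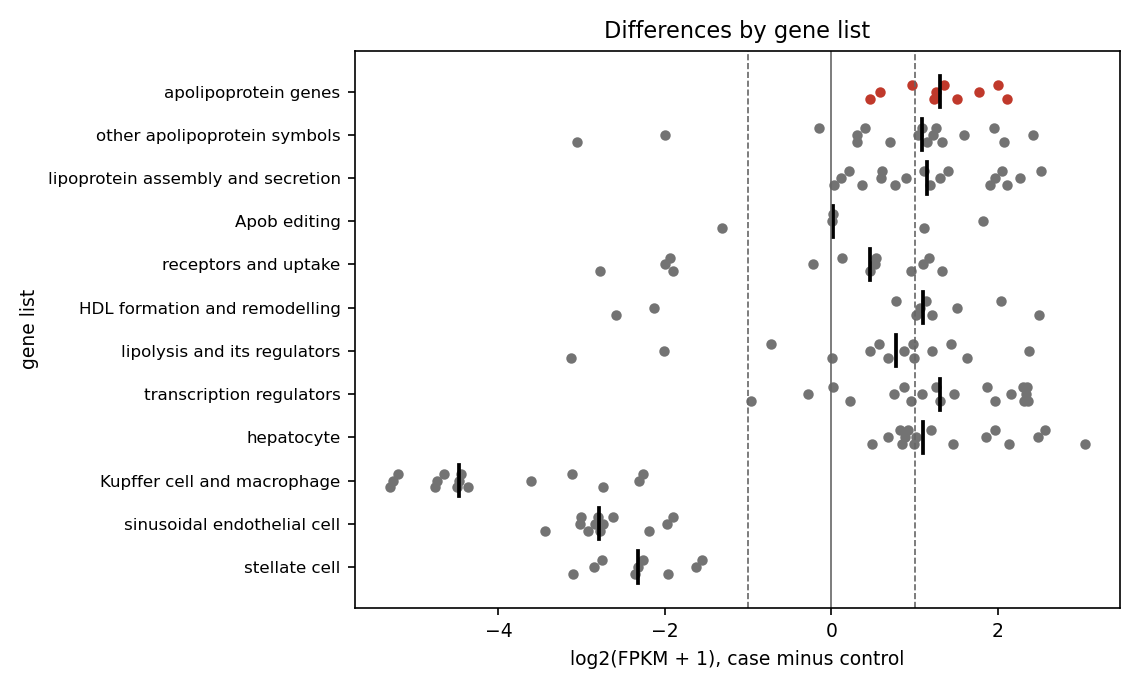
Difference of log2(FPKM + 1), case minus control, of each gene compared in the 10 apolipoprotein genes, the 7 lipoprotein lists and the marker lists with at least 5 genes compared; black bars are medians and dashed lines mark 2-fold. The medians of the apolipoprotein genes and of the transcription regulators lie near 1.3, and each compared marker of Kupffer, endothelial and stellate cells lies below -1.

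The m6A peaks of the 10 genes were read from the list of each genotype. A peak's fold enrichment, score and false discovery rate are the authors' own, and describe peaks within a list. The lists are not alike in stringency, with a median false discovery rate of 12.28% in the case and 1.66% in the control list. A rate of at most 5% was carried by 4 of all case peaks and 16638 of all control peaks. Of the apolipoprotein peaks 0 of 5 and 24 of 25 had such a rate. In the case list 4 of the 10 genes had a peak, among 65.4% of all genes compared. In the control list 9 of the 10 had one, among 65.6%. With a mean of at least 100 FPKM, the share of all genes with a peak was 38.1% in the case and 89.7% in the control list, and 2 and 7 of the 8 apolipoprotein genes in that class had one. A peak in the control list alone was found for 5 of the 10 genes, among 16.4% of all genes compared, and for 5 of the 8 abundant ones, among 53.1% of that class. The low number in the case list was thus near that of other abundant genes in these lists, and the depth of the IP libraries is unknown.

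The number of peaks in Apob differed between the lists. The case list gave it 1 peak and the control list 12, a number reached by 49 of the 7450 genes with a control peak. The lists also differed in general, with a median of 1 peak per gene with a peak in the case and 2 in the control list. The peaks of the control list were spread over the gene from chr12:7979253-7979368 to chr12:8015015-8016839, which ended at its annotated 3′ end. The only case peak, chr12:8005736-8013202, had the same start and end in both lists and was, at 7467 bases, the longest peak of each list. It began 28107 bases from the 5′ end and ended 3637 bases before the 3′ end of the gene. Its fold enrichment was 7.92 in the case list, at percentile 22.1 of that list, and 46.8 in the control list, at percentile 67.7. The other 11 control peaks had folds of 2.46 to 7.71.

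Apoa1 was the other gene with 1 peak at identical coordinates in both lists (chr9:46229805-46230469, 665 bases), reaching the 3′ end of the gene. Its fold enrichment of 15 lay at percentile 50.1 of the case list, and its fold of 241 at percentile 98.1 of the control list. In Apoa4 the case list had 2 peaks and the control list 1, and the larger case peak (chr9:46242279-46243237) contained the control peak (chr9:46242336-46243032). In Apom the lists had 1 and 2 peaks with no base shared. The case peak (chr17:35130839-35130918) lay 883 bases from the 5′ end, and the control peaks at chr17:35130408-35130506 and over the 5′ end.

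The remaining genes with a peak had it in the control list only. Apoa5 had 1 peak of 2152 bases with a fold of 33.7, Apoc1 had 1 peak near each end with folds of 12.4 and 12.5, and Apoa2 had 1 at its 3′ end with a fold of 8.59. Apoe, the most abundant, had 1 peak of 995 bases across its 3′ end (chr7:19696109-19697103), with a fold of 7.44 at percentile 8.89 of its list. Apoh had 4 internal peaks with folds of 4.43 to 8.94. Apoc3 had no peak in either list. Of the genes with a placed control peak, 6 of the 9 apolipoprotein genes had one reaching within 10 bases of the 3′ end or past it, beside 11.0% of all 6885 genes placed and 53.2% of the 171 abundant ones. In the case list 1 of 4 did, beside 8.10% of all genes and 19.4% of the abundant ones.

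**Figure D5:**
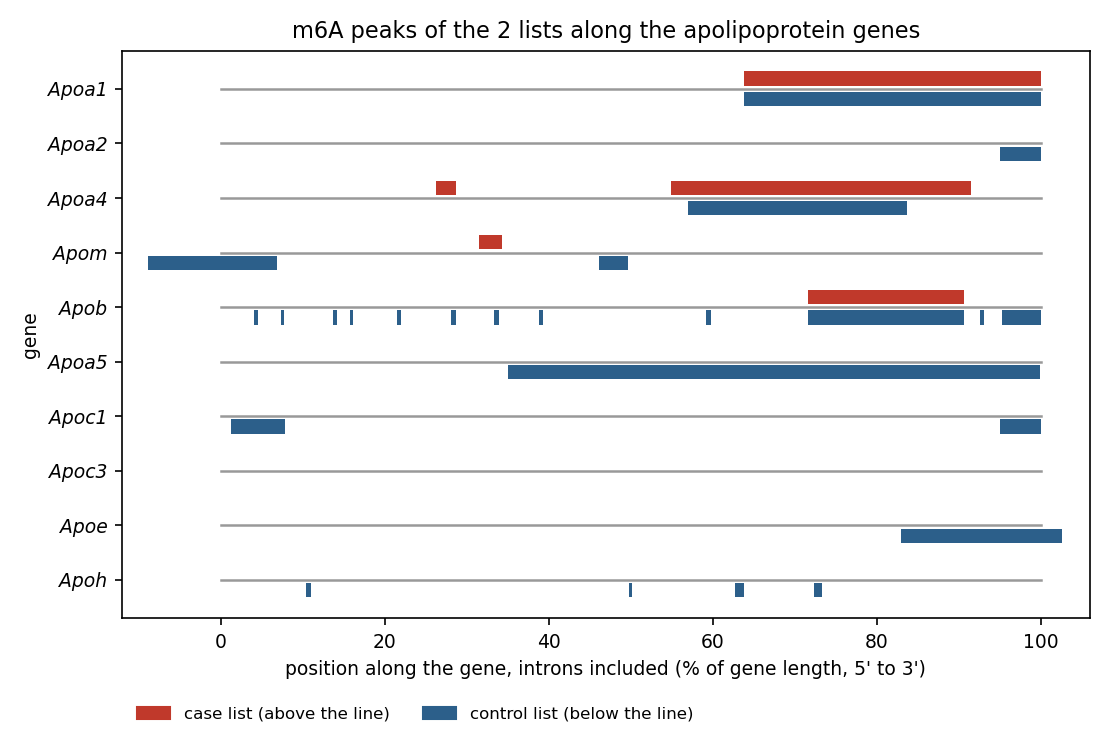
m6A peaks of the case list (above each line) and the control list (below it) along the 10 apolipoprotein genes, scaled to the RefSeq length of each gene with introns, from the 5′ to the 3′ end; peaks too short to see are drawn at 0.4% of the gene. The case list has peaks in Apoa1, Apoa4, Apom and Apob, and the control list in all but Apoc3, with identical peaks in Apoa1 and Apob.

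Of the 5 case peaks of these genes 3, or 60% (exact binomial interval 14.7 to 94.7%), were overlapped by a control peak by at least 1 base, beside 35.3% of all case peaks. Of the 25 control peaks 3, or 12% (2.55 to 31.2%), were overlapped by a case peak, beside 35.5% of all control peaks. The intervals treat peaks as independent, which they are not. Apob holds 12 and Apoh 4 of the 25 control peaks, and Apoa4 holds 2 of the 5 case peaks. The shares over all peaks are not matched for abundance. Of genes with a mean of at least 100 FPKM, 38.1% had a case peak and 89.7% a control peak. Covered length was 9235 bases in the case and 17199 bases in the control list, of which Apob took 7467 and 11003. The median fold of the apolipoprotein peaks was 5.91 in the case list, against 14.95 over that whole list, and 6.79 in the control list, against 28.5 over that list. Scores stood at a common value of 3100 for 2 of the 5 case peaks and 8 of the 25 control peaks. All peaks at that score carried a false discovery rate of 17.94% in the case list and 2.02% in the control list, so the rate does not rank peaks alike in the 2 lists. Exons are not annotated in the sources used here, and peaks are placed by gene only.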

How the data were processed

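Input RNA and anti-m6A IP RNA of mouse liver were sequenced as 150 bp paired-end reads, per the labels' protocols. Cufflinks, Cuffdiff, HISAT2 2.0.4, cutadapt 1.9.3 and the mm10 build are named, without roles, per the submitters' processing notes. The authors deposited FPKM per gene and, beside it, a signal headed as counts, which had been rescaled from whole fragments by a step (0.927 in the case and 1.085 in the control input); dividing by it gave fragments, whole within 0.02 for 91.7% and 92.6% of values above 0. A single library for each genotype allowed no count test. The authors' peak lists hold, per the file headers, a fold enrichment (ratio over background), a score of minus 10 times log10 of the p-value, and a false discovery rate in percent. Peak names begin with MACS, and its version and settings were not given in those sources. A further 8 expression columns and 4 peak lists carry library numbers that match no label and were not used.

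Mitochondrial genes (13) were set aside, and genes with a mean of at least 1 FPKM were compared on log2(FPKM + 1). Intervals are exact (Poisson, Clopper-Pearson). The members and the gene lists were chosen with earlier results of these data known. The text names all 10 genes and, in each list, up to 3 genes at least 2-fold apart in each direction, plus the 2 most abundant markers of each marker list and the cluster neighbours. A few named items are not reported here. Mttp, P4hb, Apobec1, Apol9a, Csf1r, the relation to length and the window of 10 bases at 3′ ends were chosen after their values were seen. Older symbols were matched through RefSeq synonyms. Peak starts count from 0: after 1 was added, 250 case and 308 control starts met a gene start of GRCm38.p6 (the mm10 coordinates), against 24 and 22 without. Fragment recovery, calls and overlaps were tested on simulated data. Python 3.11.15, pandas 2.3.3 and scipy 1.17.1 were used.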

Additional observations from a re-analysis of the deposited data

How the results depend on the processing

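The number of apolipoprotein genes past 2-fold upward in the case library was 7, beside 23.6% of all genes compared. It became 3 with equal non-mitochondrial totals, 0 with quantile normalization, 4 with median centring and 3 on fragments scaled to their total. The shares of all genes beside these were 8.01%, 14.2%, 11.6% and 10.4%. The number stayed at 7 with a pseudocount of 0.1, without the filter and at a mean of at least 5 FPKM. Beside it stood 31.6%, 10.3% and 37.4% of all genes compared in these settings. In every setting 0 of the apolipoprotein genes were at least 2-fold lower. For the 95 lipoprotein pathway genes compared the 48 higher became 21, 24, 26 and 24 under the same 4 scalings. At a mean of at least 100 FPKM, a filter added after the data were seen, 5 were higher. The 10 lower became 6 at a mean of at least 5 and 0 at 100 FPKM. These filters leave fewer genes to compare, so their counts are not out of the 95. Over all 9584 genes compared the 2260 higher became 768, 1363, 1108 and 996 under the 4 scalings. At 100 FPKM 120 of 194 genes were higher, a share of 61.9% against 23.6% of all genes compared. The 1264 lower became 2003 with equal totals and 2329 on scaled fragments. They were 369 of 4119 genes at a mean of at least 5 FPKM and 6 of 194 at 100 FPKM. Equal totals and scaled fragments both rest on the non-mitochondrial totals of the deposited scaled counts, so they are not separate checks. The cause of the gap between scalings was not tested.

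With false discovery rates limited to 15% the case list kept 2 apolipoprotein peaks in 2 genes, 1 in Apom and 1 in Apoa4, since the rate of the Apob, Apoa1 and other Apoa4 peaks was higher. The median rate over all 17277 case peaks was 12.28%, which is under that limit. Of the 5000 peaks of highest fold among these 17277, 0 were apolipoprotein peaks. Of the 5000 among the 17175 control peaks 1 was, in 1 gene. Overlap shares stayed within their counting intervals, from 50% to 75.0% for case peaks and from 4.00% to 14.3% for control peaks. No paired analysis was possible because the columns used hold 1 library for each genotype. Leaving out a replicate was not possible for the same reason.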
